A study of Mus musculus with 9 samples.

Results

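The 10 genes described here are fibroblast growth factor (FGF) genes known from skin. They comprise 7 ligands (Fgf1, Fgf2, Fgf5, Fgf7, Fgf10, Fgf18 and Fgf21) and 3 receptors (Fgfr1, Fgfr2 and Fgfr3). They were chosen by symbol from 19938 mouse genes measured on Affymetrix microarrays by probe sets with exactly 1 annotated symbol. All 10 were found, each with 1 probe set, so none depended on a choice between probe sets. The 4 SKP arrays (replicates 3, 4, 5 and 6) hold skin-derived precursor cells, multipotent dermal cells grown from dissociated neonatal skin and collected as spherical primary-passage colonies. The 5 Sox2-sorted arrays (replicates 2, 16, 17, 18 and 20) hold cells of Sox2:EGFP reporter mice that were EGFP-positive and CD34-negative in flow sorting and went straight into RNAlater. Skin of both groups was mouse back skin of postnatal day 4. The labels give neither a strain for the SKP mice nor the culture medium, and culture, sorting and cell source cannot be told apart in this design. The study's design text describes each array as an independent preparation.

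FGFs are secreted proteins that bind receptor tyrosine kinases together with heparan sulfate on the cell surface. The activated receptor recruits adaptor proteins and switches on the Ras-ERK cascade, which in turn induces its own inhibitors of the Sprouty and dual-specificity phosphatase families. In hair follicles Fgf7 and Fgf10 are made by the dermal papilla, the mesenchymal signalling centre at the follicle base. Both act on the IIIb splice form of Fgfr2, which epithelial cells carry. Fgf5 is known for ending the growth phase of hair, and Fgf18 for holding follicles at rest. SKPs are commonly grown with added FGF2 and EGF.

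Promoter sequences of RefSeq (build GRCm38.p6) were kept for 8 of the 10 genes, after a filter that left out windows by chromosome. 3 are shown, those of Fgf7 and Fgf10 because these ligands were lower together in SKPs, and that of Fgf21 because it was the ligand with the largest increase. Each sequence is the 250 bases before the annotated start, 5′ to 3′ on the gene's strand. Capitals mark matches to any of 5 motifs searched on both strands. The element bound by the stress factor ATF4 was searched as TGATGNAA. The site of the AP-1 factors was searched as TGANTCA, and that of the Wnt effectors TCF and LEF as CTTTGAT. The core promoter box near many start sites was searched as TATAAA, and the GC box, bound by Sp factors, as GGGCGG.
Fgf7 (chr2:126034408-126034657, plus strand): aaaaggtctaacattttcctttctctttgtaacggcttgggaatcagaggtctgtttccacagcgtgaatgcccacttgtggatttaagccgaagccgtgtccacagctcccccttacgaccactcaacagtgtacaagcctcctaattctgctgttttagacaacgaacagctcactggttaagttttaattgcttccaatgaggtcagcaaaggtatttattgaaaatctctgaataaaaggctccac
Fgf10 (chr13:118714449-118714698, plus strand): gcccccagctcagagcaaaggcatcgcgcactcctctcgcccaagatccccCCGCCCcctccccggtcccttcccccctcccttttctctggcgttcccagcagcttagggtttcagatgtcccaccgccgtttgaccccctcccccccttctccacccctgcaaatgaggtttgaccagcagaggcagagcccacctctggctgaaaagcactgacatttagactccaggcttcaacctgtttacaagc
Fgf21 (chr7:45615491-45615740, minus strand): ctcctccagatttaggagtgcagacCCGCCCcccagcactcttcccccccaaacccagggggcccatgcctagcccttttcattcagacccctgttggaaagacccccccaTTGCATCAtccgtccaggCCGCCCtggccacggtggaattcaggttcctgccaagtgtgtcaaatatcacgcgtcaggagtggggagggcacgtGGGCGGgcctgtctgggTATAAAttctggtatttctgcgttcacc
The Fgf21 window held 1 match to the ATF4 element, on the minus strand of the printed sequence, at 139 to 132 bases before the start. It also held the core promoter box 28 to 23 bases before the start and 3 GC boxes. The ATF4 element occurred in 3.45% of the 32851 promoter windows, the core promoter box in 12.4% and the GC box in 32.7%. No pair of these motifs overlapped in the 3 windows. The Fgf10 window held 1 GC box and no other match. The Fgf7 window held none of the 5 motifs, which says only that these letters are absent there. The windows of Fgf7 and Fgf10 also differed in base composition, with 43.6% and 61.2% G and C against a median of 52.4% over all windows. A match describes the sequence and not binding.

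Values are deposited log2 levels after RMA, the Affymetrix method of background adjustment, quantile normalization and summary over probes. A difference of 1 is therefore a 2-fold change. Differences are SKP minus Sox2-sorted from limma's moderated test over all genes, and genes below an adjusted p (Benjamini-Hochberg) of 0.05 were called. As a guide to background, the 95th percentile of 1194 odorant and vomeronasal receptor genes was taken, which lay between 6.02 and 6.23 in SKPs and between 5.89 and 6.17 in the sorted arrays. The 99th percentile lay between 6.69 and 6.99 in SKPs and between 6.69 and 6.93 in the sorted arrays. All 10 genes were above the 95th percentile on every array of at least 1 group, and 8 were above the 99th. Levels of different genes come from different probes and are not compared with each other.

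The sorted group was not uniform. Cd34, whose protein the sort selected against, was at 11.14 to 11.62 in SKPs, against 10.19 on replicate 2 and 10.27 on replicate 20 of the sorted cells and 7.31 to 7.82 on replicates 16, 17 and 18. Sox2 was at 5.78 to 6.41 in SKPs and at 8.24 to 9.25 in all sorted arrays. Each result below was also computed without replicates 2 and 20, since earlier results of these data had set them apart. In bulk samples, fewer cells of a type and less RNA per cell cannot be told apart.

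Of the 10 genes, 6 were lower and 2 higher in SKPs, and 2 were not called. Over all genes 16.9% were called lower and 20.2% higher, or 37% in either direction. Without replicates 2 and 20 of the sorted cells 7 of the 10 were lower and 2 higher, against 21.1% and 25.4% of all genes. All 3 receptors and the ligands Fgf7, Fgf10 and Fgf18 were lower, whereas Fgf21 and Fgf1 were higher. 4 of the decreases and 1 of the increases reached 2-fold, against 6.25% and 5.46% of all genes. The groups did not overlap in 6 of the 10 genes, against 34% of all genes. The SKP arrays lay above in 2 of these genes (18.5% of all genes) and below in 4 (15.5%). The median log2 fold change was -0.53 over the 10 genes and 0.07 over all genes.

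**Figure D1:**
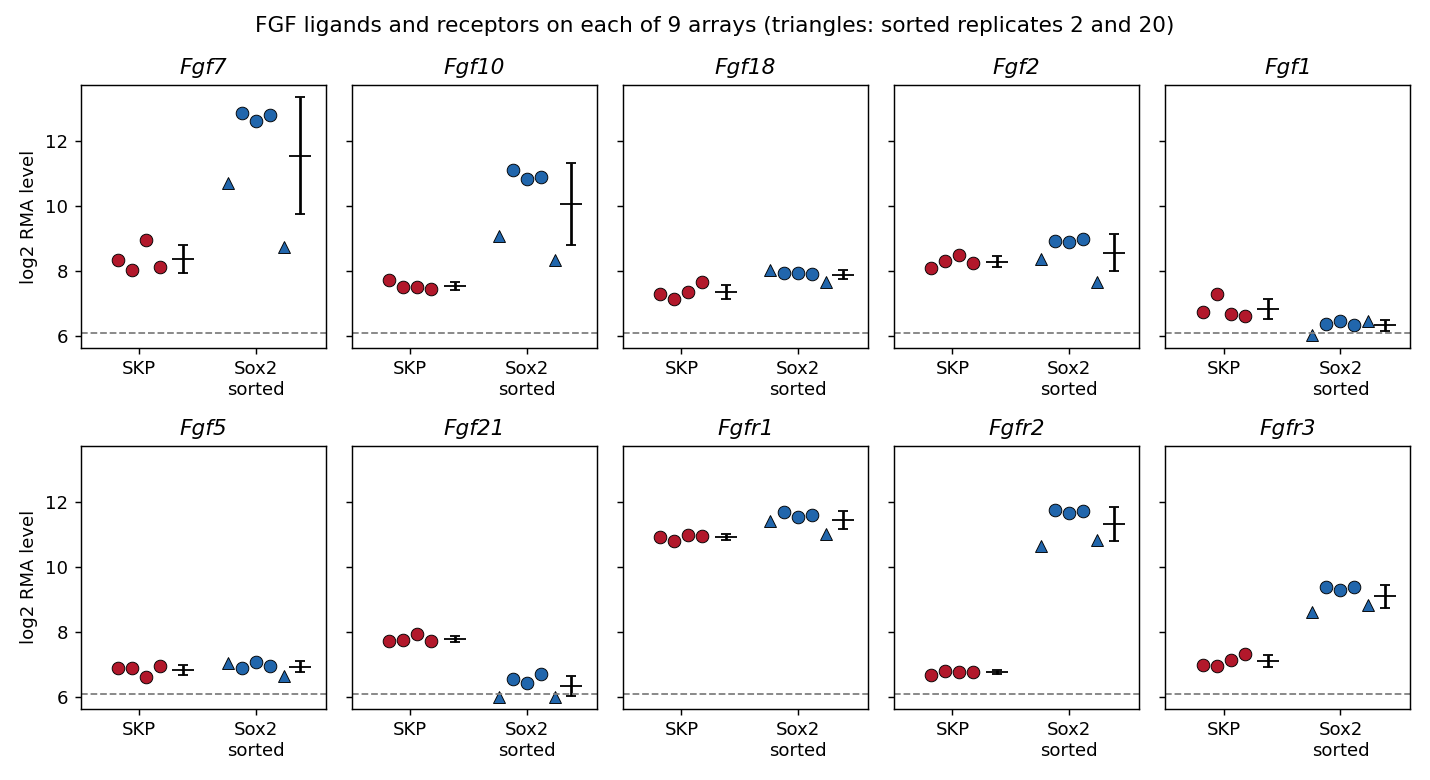
Log2 RMA level of each FGF gene (vertical axis) in the 4 SKP arrays (red) and the 5 Sox2-sorted arrays (blue), with 1 point per array, triangles for sorted replicates 2 and 20, and bars for mean and SD. The dashed line is the mean over arrays of the 95th percentile of odorant and vomeronasal receptor genes. Fgfr2 lay between 6.66 and 6.81 in SKPs and between 10.65 and 11.73 in the sorted arrays, and the triangles lie below the other sorted arrays for Fgf7 and Fgf10.

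Among the ligands, the largest differences were those of Fgf7 and Fgf10. Fgf7, the keratinocyte growth factor, was at 8.34, 8.02, 8.96 and 8.13 in SKP replicates 3, 4, 5 and 6, against 10.72, 12.85, 12.63, 12.81 and 8.74 in sorted replicates 2, 16, 17, 18 and 20. The groups overlapped, because sorted replicate 20 fell below SKP replicate 5. Fgf7 averaged 8.36 ± 0.42 in SKPs (SD, n = 4) and 11.55 ± 1.80 in the sorted arrays (n = 5). It was 9.12-fold lower in SKPs (95% confidence interval 2.69 to 30.8, limma adjusted p = 0.00937). Without sorted replicates 2 and 20 it was 21.1-fold lower, and without replicate 20 alone the log2 fold change was -3.89 in place of -3.19.

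Fgf10, which shares the receptor form of Fgf7, was at 7.72, 7.51, 7.51 and 7.45 in SKPs, against 9.09, 11.11, 10.83, 10.90 and 8.33 in the sorted arrays, in the same order of replicates. Every SKP array lay below every sorted array. Fgf10 was 5.68-fold lower in SKPs (interval 2.46 to 13.1, limma adjusted p = 0.00454), and 10.6-fold lower without sorted replicates 2 and 20. The decrease of Fgf7 exceeded that of Fgf10 by 0.68 on the log2 scale, which an exact two-sided permutation test over the arrays did not separate from the spread (p = 0.111). The 5 pairs of genes compared in this way had Benjamini-Hochberg adjusted p-values of 0.0198 or 0.111, and this was the only pair at 0.111. These 5 were picked from all possible pairs of the FGF genes, and the adjustment does not cover that choice.

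The order of the sorted arrays was shared by these ligands and by the means of 2 marker lists. The mean of the 11 dermal papilla genes was 7.07 to 7.29 in SKPs, against 10.62 (replicate 2), 10.29 (replicate 20) and 11.49 to 11.60 (replicates 16, 17 and 18) in the sorted cells. All 11 were called lower in SKPs, beside 16.9% of all genes. This list includes Sox2, whose reporter the sort selected for, so the direction of Sox2 was set by the sort. The mean of the 8 measured hair matrix and shaft genes was 5.70 to 6.06 in SKPs, against 7.52, 7.39 and 9.88 to 9.97 on the same sorted arrays. In this list 7 were called lower and 3 were at or under the 95th percentile on every SKP array. The mean of the 8 measured dermal fibroblast genes ran the other way, at 12.27 to 12.59 in SKPs, against 11.50, 11.62 and 10.18 to 10.28. The fibroblast list includes Cd34, whose protein the sort selected against. On SKP replicate 5, where Fgf7 was highest among SKPs, the mean of the 9 immune genes was also highest, at 8.80 against 7.11 to 8.14 on the other SKP arrays. The part of these cell types in the Fgf7 and Fgf10 values was not tested.

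**Figure D2:**
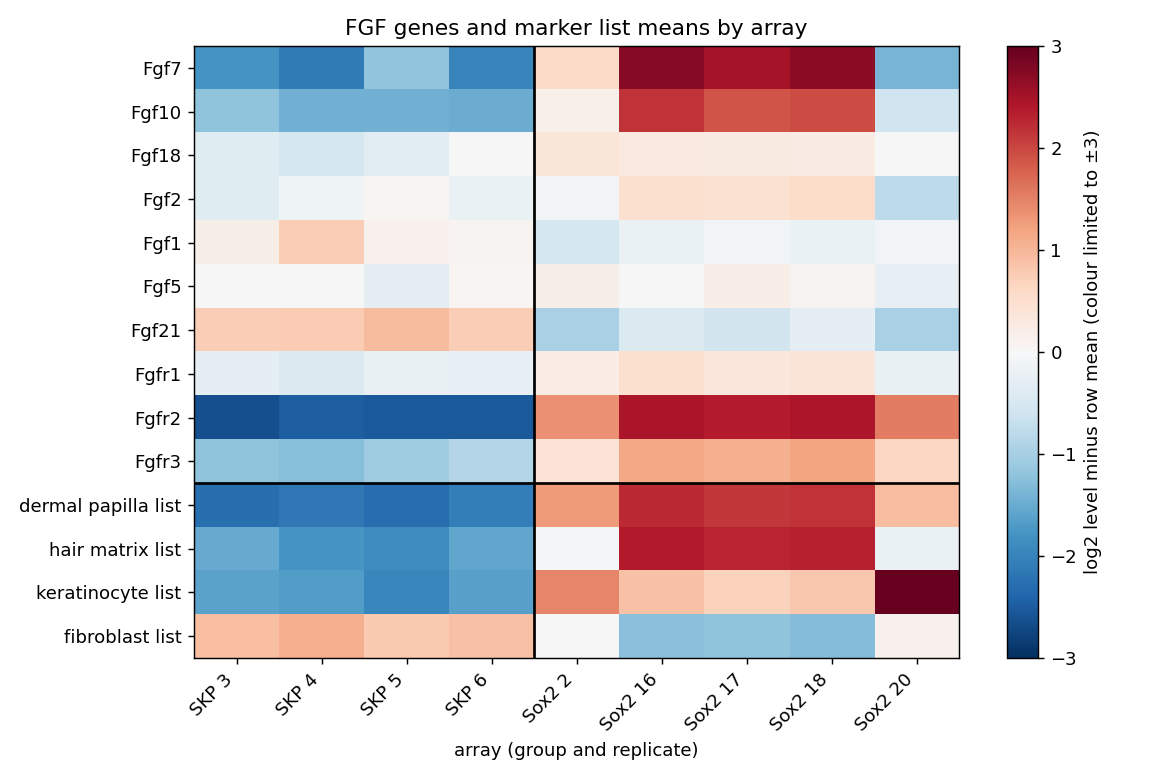
Colour gives the log2 level minus the row's mean over the 9 arrays (limited to ±3) for the 10 FGF genes (upper rows) and for the means of 4 marker lists (lower rows), with the SKP arrays left of the black line and the sorted arrays right of it. Fgf7 and Fgf10 are palest among the sorted arrays, or blue, on replicates 2 and 20, where the dermal papilla list means were 10.62 and 10.29, while the keratinocyte list reached 11.18 on replicate 20.

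Fgf18, a ligand of resting follicles, differed less. It was at 7.30, 7.14, 7.34 and 7.67 in SKPs, against 8.02, 7.95, 7.92, 7.89 and 7.65 in the sorted arrays. SKP replicate 6 lay just above sorted replicate 20, so the groups overlapped. The decrease was 1.44-fold (interval 1.20 to 1.73, limma adjusted p = 0.00552), and it was 1.48-fold without sorted replicates 2 and 20. Fgf10 decreased more than Fgf18 by 1.98 on the log2 scale (exact permutation p = 0.0159, the smallest that 126 splits allow, adjusted p = 0.0198).

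Fgf21, a hormone-like FGF that is released under metabolic and amino acid stress, was the ligand with the largest increase. It was at 7.71, 7.75, 7.93 and 7.72 in SKPs, against 6.00, 6.54, 6.43, 6.69 and 6.00 in the sorted arrays. The SKP arrays lay close together and above all sorted arrays. Fgf21 averaged 7.78 ± 0.10 in SKPs (SD, n = 4) and 6.33 ± 0.31 in the sorted arrays (n = 5). The increase was 2.72-fold (interval 2.15 to 3.44, limma adjusted p = 4.86e-05). No sorted array exceeded the 99th percentile of the receptor genes and 4 of 5 exceeded the 95th, so the sorted level is close to background and the fold is approximate. Klb, the co-receptor that FGF21 needs, was at or near background in both groups. It was at 5.29 to 5.95 in SKPs and at 5.24 to 5.95 in the sorted arrays, above the 95th percentile on 0 of 4 SKP arrays and 1 of 5 sorted arrays, so no fold is given.

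Fgf1, an FGF without a signal peptide that binds all FGF receptors, was also higher in SKPs but close to background. It was at 6.74, 7.28, 6.67 and 6.63 in SKPs, against 6.02, 6.36, 6.46, 6.34 and 6.46 in the sorted arrays. The groups did not overlap, although no sorted array and only 1 SKP array exceeded the 99th percentile of the receptor genes. The increase was 1.42-fold (interval 1.13 to 1.78, limma adjusted p = 0.0228). SKP replicate 4 stood above the other SKP arrays, and without it the log2 fold change was 0.35 in place of 0.50 (limma adjusted p = 0.0413).

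Fgf2, the basic FGF, and Fgf5 were not called. Fgf2 was at 8.08, 8.32, 8.50 and 8.24 in SKPs, against 8.36, 8.91, 8.89, 8.99 and 7.65 in the sorted arrays. Its sorted values spanned those of all SKP arrays, from 7.65 on replicate 20 to 8.99 on replicate 18. The log2 fold change was -0.27 (interval -0.85 to 0.30, limma adjusted p = 0.444). Fgf2 was called lower without sorted replicate 20 (-0.50, adjusted p = 0.0236) and without replicates 2 and 20 (-0.64, adjusted p = 7.40e-04).

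Fgf5 was at 6.89, 6.89, 6.60 and 6.95 in SKPs, against 7.05, 6.89, 7.08, 6.96 and 6.64 in the sorted arrays, so the groups overlapped throughout. Its log2 fold change was -0.09 (interval -0.34 to 0.16, limma adjusted p = 0.568). A difference of more than 1.26-fold in either direction lay outside this interval. Only 1 of 4 SKP arrays and 4 of 5 sorted arrays exceeded the 99th percentile of the receptor genes. The level is thus near background, where a difference can be understated, and the interval is approximate.

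**Figure D3:**
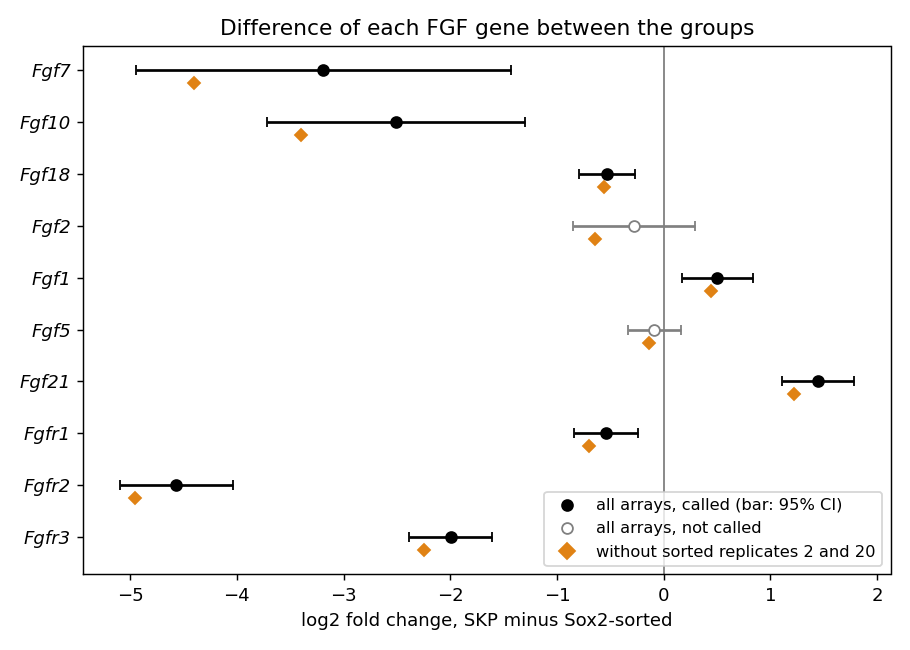
Log2 fold change, SKP minus Sox2-sorted (horizontal axis), for each FGF gene, with 95% confidence intervals from all 9 arrays (circles, filled where called) and the value without sorted replicates 2 and 20 (diamonds). Fgfr2 lies at -4.57 and Fgf21 at 1.44, and the diamonds of Fgf7 (-4.40) and Fgf10 (-3.40) lie further from zero than their circles.

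The 3 receptors were all lower in SKPs, by very different amounts. Fgfr1, the receptor typical of mesenchyme, was at 10.92, 10.78, 10.98 and 10.95 in SKPs, against 11.42, 11.70, 11.52, 11.60 and 10.99 in the sorted arrays. The groups did not overlap, though sorted replicate 20 lay only just above SKP replicate 5. The decrease was 1.45-fold (interval 1.18 to 1.79, limma adjusted p = 0.01004). Without sorted replicates 2 and 20 it was 1.62-fold.

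Fgfr2, whose IIIb form serves epithelium and IIIc form mesenchyme, showed the largest difference of the 10 genes. It was at 6.66, 6.81, 6.76 and 6.77 in SKPs, against 10.65, 11.73, 11.65, 11.72 and 10.82 in the sorted arrays. The gap between the groups was many times the spread within either, with means of 6.75 ± 0.06 in SKPs (SD, n = 4) and 11.32 ± 0.53 in the sorted arrays (n = 5). Fgfr2 was 23.7-fold lower in SKPs (interval 16.5 to 34.1, limma adjusted p = 4.83e-07). In absolute size this log2 fold change exceeded those of 99.8% of all genes. Only 1 SKP array exceeded the 99th percentile of the receptor genes, so the SKP level is near background and the fold is approximate. A probe set covers the whole gene, so the IIIb and IIIc forms are not separated here.

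Fgfr3, which is found in the hair follicle epithelium and in cartilage, was at 6.99, 6.93, 7.13 and 7.33 in SKPs, against 8.61, 9.37, 9.28, 9.38 and 8.82 in the sorted arrays. All SKP arrays lay below all sorted arrays. The decrease was 3.99-fold (interval 3.05 to 5.22, limma adjusted p = 1.47e-05), or 4.75-fold without sorted replicates 2 and 20.

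The receptors differed from each other in how far they were lower. Relative to Fgfr1 on the same array, Fgfr2 was lower in SKPs by a further 16.3-fold and Fgfr3 by 2.75-fold. Fgfr2 was lower than Fgfr3 by a further 5.94-fold. In SKPs Fgfr2 exceeded the 99th percentile of the odorant and vomeronasal receptor genes on 1 of 4 arrays and Fgfr3 on 3 of 4. Both SKP levels are thus near background, and these folds are approximate. Each of the 3 contrasts had an exact two-sided permutation p of 0.0159, the smallest possible with these arrays, and an adjusted p of 0.0198 over 5 pairs. Without sorted replicates 2 and 20 the contrasts were -4.25, -1.55 and -2.71 on the log2 scale, and the smallest possible p was then 0.0571.

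Epithelial markers were lower in SKPs, as Fgfr2 and Fgfr3 were, but the epithelial lists differed in their order among the sorted arrays. All 14 keratinocyte genes were called lower in SKPs, beside 16.9% of all genes. Their mean was 6.20 to 6.55 in SKPs, against 9.61 (replicate 2), 11.18 (replicate 20) and 8.85 to 9.04 (replicates 16, 17 and 18) in the sorted cells. In this list 3 genes were at or under the 95th percentile of the receptor genes on every SKP array. Esrp1, which directs splicing toward the epithelial form of Fgfr2, was at 5.59 to 5.88 in SKPs and at 8.82 to 10.56 in the sorted arrays. Sorted replicates 2 and 20, with the highest keratinocyte means, had the lowest Fgfr2 and Fgfr3 levels of the sorted group. The hair matrix and shaft list, which is epithelial too, was lower on replicates 2 and 20, as the receptors were. Its means were 7.52 and 7.39 there, against 9.88 to 9.97 on replicates 16, 17 and 18. The mean of the dermal papilla list was also lower there (10.62 and 10.29, against 11.49 to 11.60). Between replicates 2 and 20, Fgfr2 (10.65 and 10.82) and Fgfr3 (8.61 and 8.82) were lower on replicate 2, as the keratinocyte mean was. The means of the hair matrix and dermal papilla lists were lower on replicate 20. The part of epithelial or dermal papilla cells in the receptor values was not tested.

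For each of the 10 genes, the 2 genes with the most similar profile over the 9 arrays were taken, by the root mean square difference between log2 values centred on each gene's mean. Fgf7 was nearest to Dcc, a netrin receptor (0.30), and to Ints6l (0.34), and Fgf10 to Snap91, a clathrin assembly protein (0.16), and the integrin subunit Itga9 (0.24). Fgfr2 was nearest to the phosphodiesterase Pde3a (0.27) and to Sostdc1, a secreted BMP and Wnt antagonist (0.30). The genes' own root mean square spread about their means was 2.00 for Fgf7, 1.50 for Fgf10 and 2.30 for Fgfr2. Because the neighbours were picked as the nearest of all genes, small distances are in part a result of that choice. Likeness was not tested.

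Fgfr3 was nearest to the cadherin Celsr2 and the phosphatase Ptprk (both 0.15), and Fgfr1 to Ankrd28 (0.07) and the adhesion gene Ncam1 (0.08). Fgf21 was nearest to Aga, a lysosomal enzyme (0.08), and to the protein kinase A subunit Prkacb (0.11). The nearest genes were Kif1a (0.09) and Rhebl1 (0.10) for Fgf18, Zfp638 (0.11) and Arhgap31 (0.12) for Fgf2, and Zkscan3 (0.11) and Thap6 (0.12) for Fgf1. For Fgf5 they were the odorant receptor gene Olfr1022 (0.05) and Nhsl2 (0.06), beside an own spread of 0.15. Among the 10 genes, the closest pair was Fgf18 and Fgfr1 (0.16), and the distance of Fgf7 from Fgf10 was 0.59.

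Beyond the 10 genes, 71 of 78 listed genes of the FGF pathway were measured, of which 17 were higher and 19 lower in SKPs, beside 20.2% higher and 16.9% lower over all genes. Of the other 15 genes of the FGF family limma called 3 lower and 0 higher (3 and 1 at an unadjusted p under 0.05). Their median log2 fold change was 0.03. 8 of the 15 were under the 99th percentile of the receptor genes on every array. The 3 lower genes encode intracellular FGF homologous factors, which modulate sodium channels. Fgf12 was at 5.42 to 5.73 in SKPs, not above background, and at 6.03 to 6.76 in the sorted arrays (at least 1.16-fold lower, limma adjusted p = 0.00235). Fgf14 was likewise not above background in SKPs (5.22 to 5.98, against 5.82 to 6.83 in the sorted arrays, at least 1.18-fold lower, limma adjusted p = 0.0336). Its call was lost on leaving out SKP replicate 3, 5 or 6 or sorted replicate 16, 17 or 18 (adjusted p up to 0.0959).

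Among 9 other receptors, co-receptors and binding proteins limma called 4 lower and 0 higher (4 and 1 at an unadjusted p under 0.05). Over all genes 16.9% were called lower and 20.2% higher. The median of the 9 was 0.03. Flrt3, a membrane protein that binds FGF receptors, was 3.19-fold lower, at 7.94 ± 0.15 in SKPs (SD, n = 4) against 9.61 ± 0.30 in the sorted arrays (n = 5, limma adjusted p = 1.75e-05). Fgfbp1, an epithelial protein that releases FGFs from matrix, was not above background in SKPs, at 5.57 to 5.81, against 7.52, 6.81, 6.76, 6.47 and 8.36 in the sorted arrays. It was at least 2.07-fold lower by the group means (fitted 95% confidence interval 1.69 to 4.74, limma adjusted p = 0.00526). Its sorted values were highest on replicates 2 and 20, as the keratinocyte mean was. Without these replicates its fitted fold was 2.00 in place of 2.83.

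Of 10 heparan sulfate core protein genes 3 were higher, 2 lower and 5 not called, close to the shares over all genes (20.2% higher and 16.9% lower), and the median was 0.12. The glypican Gpc3 was at 8.15, 8.73, 7.56 and 7.88 in SKPs, against 12.09, 11.01, 11.10, 11.02 and 11.99 in the sorted arrays, a decrease of 10.3-fold (limma adjusted p = 1.81e-05). Every SKP array lay more than 2 log2 units below every sorted array. The syndecan Sdc4 was 1.51-fold lower (limma adjusted p = 0.00896), whereas Sdc2 was 1.89-fold higher (limma adjusted p = 0.00138) and Gpc6 1.57-fold higher (limma adjusted p = 0.00348). Of 13 measured heparan sulfate enzymes 4 were higher, 4 lower and 5 not called, and their median was 0.11. Sulf1, which strips 6-O-sulfate and so weakens FGF binding to its receptor, was 3.94-fold lower, at 8.08 ± 0.51 in SKPs (SD, n = 4) against 10.06 ± 0.10 in the sorted arrays (n = 5, limma adjusted p = 4.13e-05). The 6-O-sulfotransferase Hs6st2 was 2.64-fold lower and its relative Hs6st1 1.53-fold higher (limma adjusted p = 6.59e-04 and 0.00688). In SKPs Hs6st2 exceeded the 99th percentile of the odorant and vomeronasal receptor genes on 1 of 4 arrays, so its fold is approximate. Heparanase (Hpse) was 1.61-fold higher (limma adjusted p = 9.26e-04), with 2 of 5 sorted arrays above the 95th percentile.

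Of 13 measured adaptors and Ras-ERK genes 3 were higher and 6 lower, beside 20.2% and 16.9% of all genes, and their median was -0.02. The docking protein Gab1 was at 8.31, 8.54, 8.25 and 7.95 in SKPs, against 10.72, 10.22, 10.38, 10.04 and 10.54 in the sorted arrays, a decrease of 4.34-fold (limma adjusted p = 4.93e-06). The kinase Braf was 2.82-fold lower (limma adjusted p = 4.80e-05). Shc1, another adaptor, was 1.86-fold higher (limma adjusted p = 6.39e-04), and Map2k1, the kinase that activates ERK, was 1.47-fold higher (limma adjusted p = 3.44e-04).

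Of the 11 ERK feedback genes limma called 7 higher and 0 lower (7 and 1 at an unadjusted p under 0.05), beside 20.2% and 16.9% of all genes, and the median was 0.62. Dusp6, the phosphatase that inactivates ERK, was at 12.16, 12.26, 12.22 and 12.23 in SKPs, against 10.84, 10.43, 10.27, 10.05 and 10.59 in the sorted arrays. Its increase was 3.44-fold (limma adjusted p = 8.21e-06). Spry4, a Sprouty inhibitor, was at 10.38, 10.76, 10.20 and 10.16 in SKPs, against 7.62, 9.05, 9.08, 9.14 and 7.76 in the sorted arrays. It was 3.59-fold higher (limma adjusted p = 0.00210), or 2.43-fold without sorted replicates 2 and 20. Without these replicates 7 feedback genes were higher and 3 lower, beside 25.4% and 21.1% of all genes, and the median was 0.35. Spry1, chosen after its values were seen, was among the 3. It was at 9.74, 10.12, 9.12 and 9.51 in SKPs, against 9.82, 12.09, 11.64, 12.07 and 9.57 in the sorted arrays. It was not called over all arrays (log2 fold change -1.42, limma adjusted p = 0.0721), and its levels on sorted replicates 2 and 20 lay within the range of the SKP arrays.

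**Figure D4:**
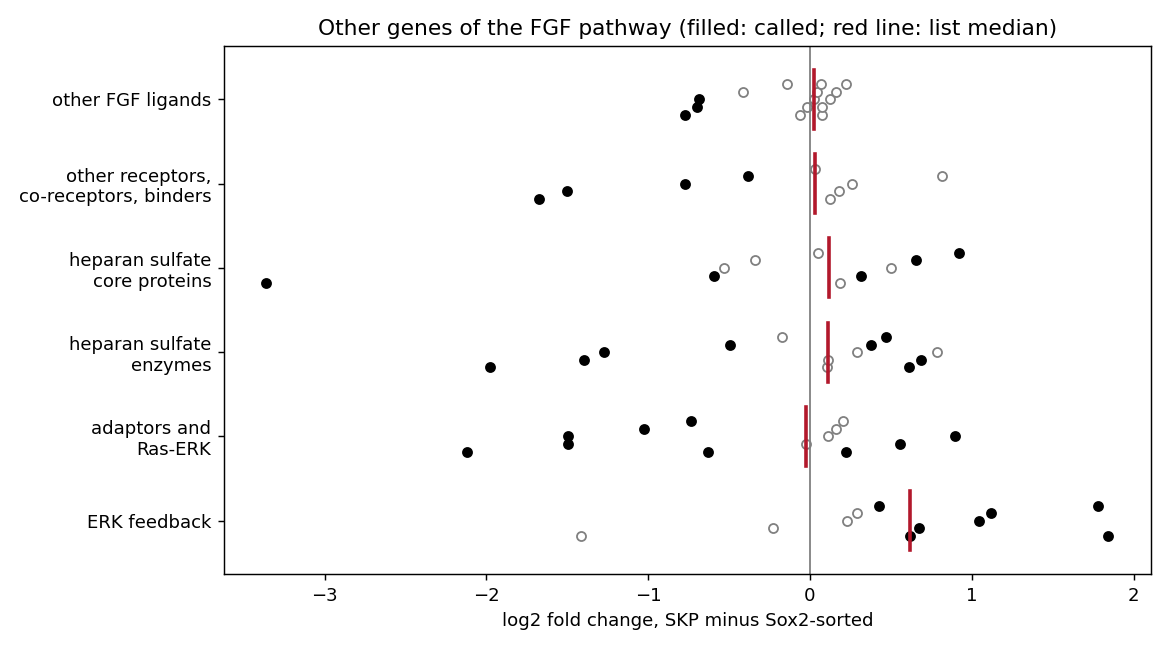
Log2 fold change, SKP minus Sox2-sorted (horizontal axis), of every measured gene in 6 lists of the FGF pathway, with 1 circle per gene, filled where called, and a red line at each list's median. Vertical offsets within a list only separate the circles. The feedback list has the highest median (0.62), and Gpc3 lies farthest to the left at -3.36.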

How the data were processed

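RNA of 4 SKP and 5 Sox2-sorted preparations was measured on Mouse Gene 1.0 ST arrays of Affymetrix, 1 array each. The deposited values are log2 levels per probe set and array. Per the submitters' processing notes they were made with RMA. Affymetrix Expression Console and limma are named there too, and versions, settings and a genome build are not given in the sources used here. Groups and replicate numbers come from the sample titles. No detection p-value was used, and the number of arrays limits the precision.

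Of 35556 probe sets, 21789 have 1 annotated symbol, 1621 several and 12146 none. Symbols were looked up by Entrez identifier (21698 found, 0 changed). For 999 genes with several probe sets, the one with the highest mean was taken. limma 3.58.1 in R 4.3.3 (lmFit, eBayes, two-sided) was fitted on all 19938 genes, with Benjamini-Hochberg adjustment over all of them, and was tested on simulated data. Differences between 2 genes were compared by exact permutation over the arrays. Coordinates are those of the RefSeq promoter table. A fold is given as "at least" where no array of the dimmer group exceeded the 95th percentile. It then sets the mean of the brighter group against the mean, over the dimmer arrays, of the higher of the percentile and the gene's own value. This bound allows for the background only and does not include the spread between arrays. Figures were drawn with matplotlib 3.10.9.

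The FGF genes, lists and alternatives were chosen with earlier results of these data known. Named were all 10 genes, 2 nearest genes for each, and in each pathway list the 2 called genes with the largest fold in each direction. Any other gene is named as background to one of these or was chosen after its values were seen. Over all genes limma called 20.2% higher and 16.9% lower. By limma, the other marker lists had these calls, higher first: Schwann cell 0 and 5 of 5 measured, melanocyte 1 and 5 of 7, immune 9 and 0 of 9, endothelial 0 and 1 of 5 (1 and 1 at an unadjusted p under 0.05), pericyte and smooth muscle 1 and 4 of 6, adipocyte 0 and 0 of 3 (0 and 0 unadjusted), and dermal fibroblast 6 and 0 of 8 (6 and 1 unadjusted).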

Additional observations from a re-analysis of the deposited data

Results flagged for a closer look

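In 5 of 56 groups of arrays (28 named genes, each in SKPs and in sorted cells), 1 array stood apart from the others of its group by Dixon's test at the 95% level. Chance gives about 1 in 20. Fgf1 was at 7.28 on SKP replicate 4, against 6.63 to 6.74 on the other SKP arrays. Among the sorted arrays Fgf1 was at 6.02 on replicate 2, against 6.34 to 6.46 on the others. Flrt3 was at 7.72 on SKP replicate 3, against 8.00 to 8.03. Sdc4 was at 11.04 on sorted replicate 20, against 10.36 to 10.53, and Map2k1 at 9.92 on sorted replicate 2, against 9.69 to 9.75.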

How the results depend on the processing

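Some of the 18 alternatives could not change the fold changes of the 10 FGF genes. These genes have 1 probe set each, so averaging or separating probe sets refits the same values. Other alternatives changed only the set of genes tested, the variance estimate or the threshold. Agreement in direction was thus fixed in advance for these. Over the 18 alternatives, 175 of 180 values of the 10 FGF genes kept their direction and side of the threshold. No direction of the 8 called genes changed. The exceptions were Fgf2, called lower with array weights (-0.63), without sorted replicates 2 and 20 (-0.64) and without replicate 20 (-0.50, in a range of -0.50 to -0.17 over single arrays left out), and Fgf1 (0.50) and Fgfr1 (-0.54), which missed an adjusted p of 0.01. At that threshold 1 FGF gene was higher in place of 2. Array weights raised the genes called higher to 6145 in all and to 28 in the pathway lists, and the cause was not tested. The median log2 fold change of all genes was 0.07 as deposited and after quantile normalization, and 0.14 after median centring. The scanner files were not used, so background correction could not be varied. No paired analysis was possible because the groups share no replicate number.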

Other observations

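In a few pathway genes the level on sorted replicates 2 and 20 was close to that of the SKP arrays. They were chosen after their values were seen. Flrt2, a membrane protein of mesenchyme, was at 10.23 to 10.47 in SKPs, against 10.56 (replicate 2), 10.43 (replicate 20) and 8.74 to 9.18 (replicates 16, 17 and 18) in the sorted cells. Sulf2, a relative of Sulf1, was at 10.35 to 10.46 in SKPs, against 10.35, 10.58 and 8.73 to 9.32 on the same arrays. Neither was called over all arrays (log2 fold change 0.82 and 0.78, limma adjusted p = 0.131 and 0.110). Without both replicates they were 1.46 and 1.35 (limma adjusted p = 1.62e-05 and 3.47e-05).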
